A study of Anopheles coluzzii and Anopheles merus with 32 samples.

Results

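In the larvae of 2 closely related malaria mosquitoes, 48 of 11025 genes were selected on their measured mRNA levels, because these were lower in saltwater (SW) than in freshwater (FW) in Anopheles merus at both ages examined and differed little between the waters in Anopheles coluzzii. Levels are read counts relative to library size, with a TMM scaling factor, written CPM throughout, and differences are on the scale of log2(CPM + 1). The rule took genes averaging 1 CPM or more over 32 libraries, an SW minus FW difference of -1.2 or less in An. merus at both ages and an absolute difference below 0.5 in An. coluzzii at both ages. It left out 2 ranges of identifiers, AGAP005996 to AGAP006013 and AGAP006828 to AGAP006868. Because these water differences chose the members, they are described without a test, and tests are kept for the effect of age and for species differences.

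Whole larvae were pooled, 35 to 50 per library, and all had been reared in FW. At 18 h or 66 h after hatching they were moved for 6 h into FW or SW, so the FW groups are controls that also went through the exposure step. The sample titles write DI for the groups called FW here. Whether DI is the same water as that of rearing cannot be told from the titles. The 8 groups, each of 4 libraries, are An. coluzzii and An. merus at 18 h and at 66 h, in FW or in SW. The labels give no salinity for the SW and no strain. They also leave unsaid whether the 4 pools of a group were reared apart, and the p-values therefore rest on a spread between libraries that may be technical in part.

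Mosquito larvae in salt water lose water to the medium and take up ions, and the species that tolerate it drink the medium and excrete the excess ions, in anophelines through specialised cells of the rectum. Larvae restricted to fresh water instead take up scarce ions and excrete dilute urine. The title of the series sets An. merus, whose larvae develop in brackish water, against An. coluzzii as euryhaline against stenohaline, that is, tolerant of a wide or a narrow range of salinity. The identifiers of the table were not paired with gene names by any source used here, so members are given by identifier and no function is attached to them.

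The 32 libraries held 3769859 to 16633623 reads. A library's SD from the mean of its 3 group mates, over all 10505 genes tested, ran from 0.193 to 0.551 on the log2 scale, and the largest values were those of An. coluzzii at 18 h in SW, replicates 1 and 4. Since pools of whole larvae were sequenced, fewer cells of a type and less RNA per cell cannot be told apart.

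The rule narrowed quickly. Of 10505 genes averaging 1 CPM or more, 306 were at -1.2 or lower in An. merus at 18 h (2.91%), 413 at 66 h (3.93%) and 125 at both ages (1.19%). In 65 of these 125 the An. coluzzii difference was -0.5 or lower at either age, and in 19 it was 0.5 or higher at either age, with 9 genes counted in both because they passed the limit in opposite directions at the ages. That left 50 genes, of which 2 fell in the excluded ranges.

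**Figure D1:**
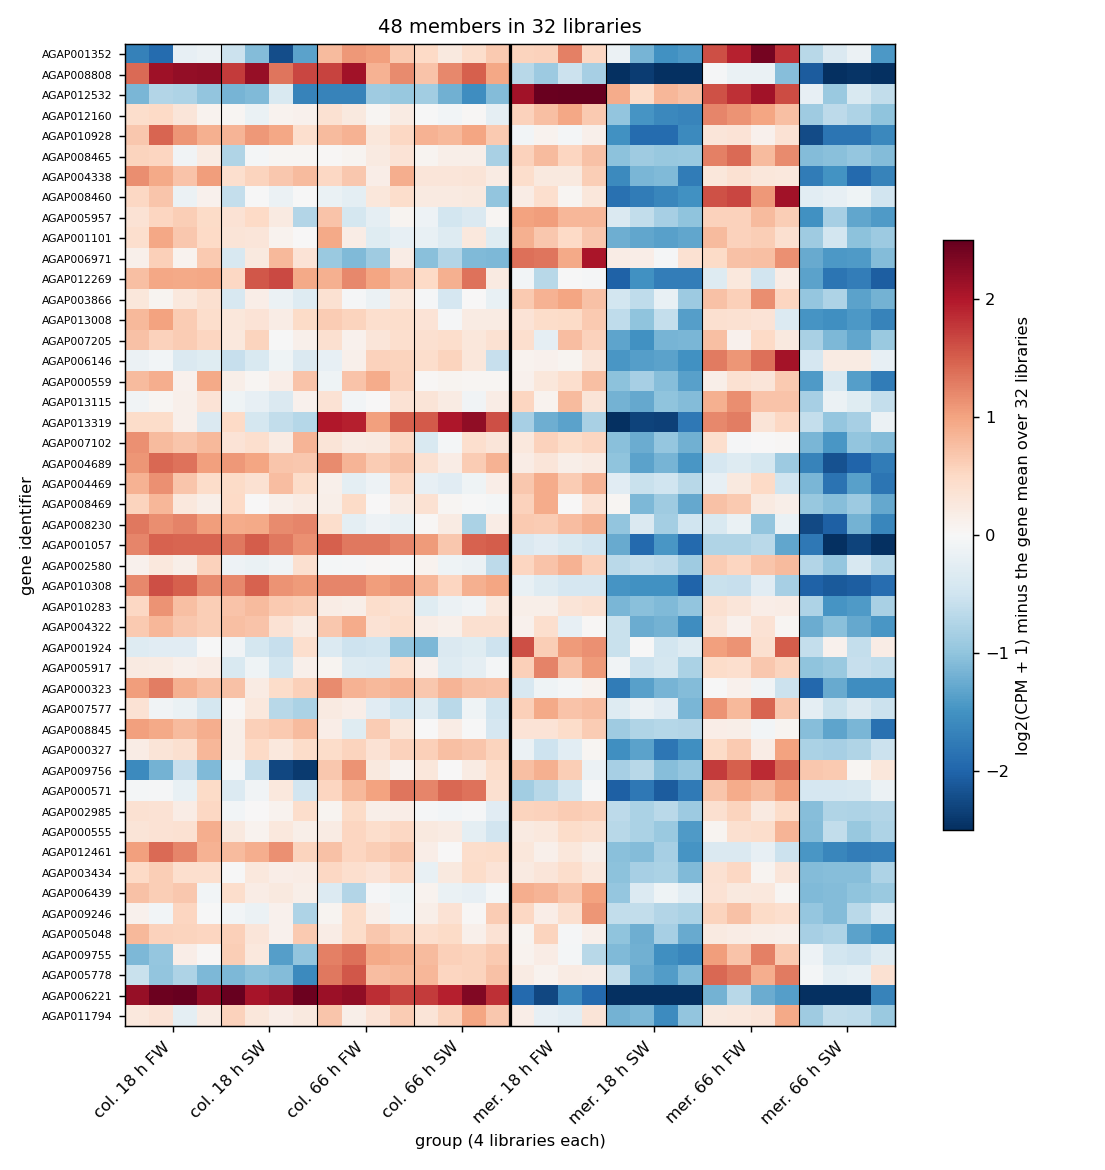
Heat map of the 48 members (rows, ordered by the mean An. merus difference) in the 32 libraries (columns, 4 per group; col., An. coluzzii; mer., An. merus). Colour is log2(CPM + 1) minus the gene's mean over all libraries, with the scale ending at -2.5 and 2.5, and the SW libraries of An. merus form the low (blue) blocks at 18 h and 66 h.

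In An. merus the SW minus FW differences of the members ran from -2.17 to -1.22 at 18 h, with a median of -1.38, and from -2.59 to the limit of -1.2 at 66 h, with a median of -1.43. Over all genes tested the medians were -0.02 and -0.06. On the CPM scale without a pseudocount, the FW mean was 2.41 to 9.62 times the SW mean at 18 h (median 3.07) and 2.32 to 15.6 times at 66 h (median 3.11). The median of the members' group means was 14.6 CPM in FW and 4.32 CPM in SW at 18 h, and 14 and 4.36 CPM at 66 h. Most members lay close to the limit: 28 stayed above -1.5 at both ages, and 8 reached -2 or lower at either age, namely AGAP001352, AGAP004338, AGAP006971, AGAP008465, AGAP008808, AGAP010928, AGAP012160 and AGAP012532. By their mean over all libraries, 11 members were under 5 CPM, 30 lay from 5 to under 50 CPM, 2 from 50 to under 100 CPM and 5 at 100 CPM or more.

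The size of the difference was similar at the ages for many members. It was more negative at 66 h in 27 members and at 18 h in 21, and the ages were within 0.2 of each other in 24. In 5 members they were more than 0.5 apart. The difference was the more negative at 66 h by that margin in AGAP006971, AGAP001352, AGAP008465 and AGAP012532, and at 18 h in AGAP001101. All 4 SW libraries lay below all 4 FW libraries in 47 of 48 members at 18 h, where 25.1% of all genes did, and in 48 of 48 at 66 h, where 27.1% did. The rule largely fixes these counts. AGAP008469 was the exception at 18 h, with an SW replicate 1 value of 3.34 CPM above an FW replicate 3 value of 3.24 CPM.

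**Figure D2:**
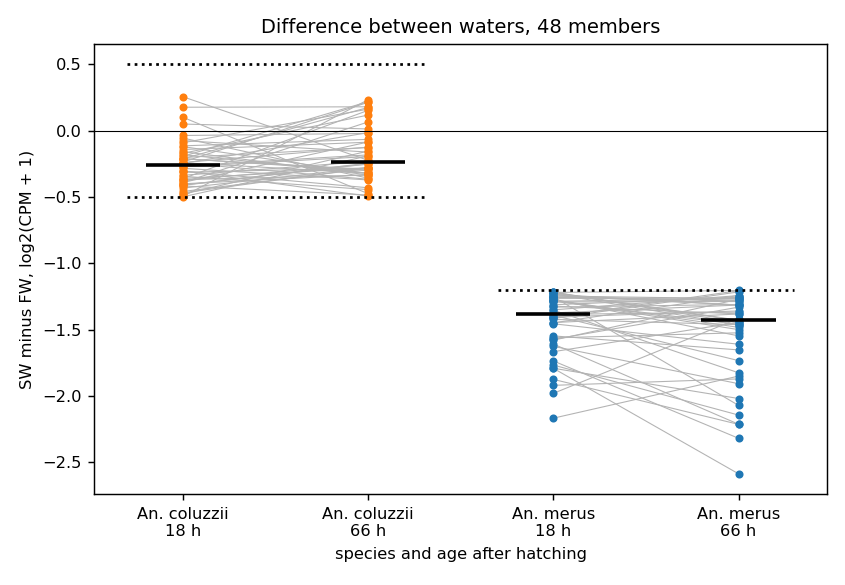
SW minus FW difference in log2(CPM + 1) for each of the 48 members (points) in the 4 combinations of species and age, with grey lines joining the ages of a species, black bars at the medians and dotted lines at the limits of the rule. For An. coluzzii the medians are -0.26 and -0.24, for An. merus -1.38 and -1.43.

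In An. coluzzii the limit of 0.5 did not mean that the differences scattered evenly about 0. They were below 0 in 44 of 48 members at 18 h (median -0.26) and in 38 of 48 at 66 h (median -0.24), against 49.9% and 49.2% of all genes tested, and 36 members were below 0 at both ages. The FW mean was 1.22 times the SW mean at 18 h and 1.17 times at 66 h, as medians over the members on the CPM scale. Membership is therefore not to be read as no difference in An. coluzzii. The difference stayed within 0.2 of 0 at both ages in 8 members, AGAP000327, AGAP001057, AGAP001924, AGAP006146, AGAP006221, AGAP008230, AGAP011794 and AGAP012532. SW libraries lay entirely below FW libraries in 5 members at 18 h (5.05% of all genes), which were AGAP000323, AGAP000555, AGAP001101, AGAP003434 and AGAP008845. At 66 h they did so in 7 other members (5.88%), AGAP001352, AGAP002985, AGAP009755, AGAP010308, AGAP012160, AGAP012461 and AGAP013008. They lay entirely above in none at either age (4.02% and 5.32% of all genes). The rule limited the An. coluzzii differences of the members and not those of all genes, so these counts are description only.

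Close to the limits, small shifts decide membership. Just inside the An. merus limit were AGAP011794, AGAP000571 and AGAP009756, whose weaker difference was -1.204, -1.206 and -1.215, and just outside it AGAP012817, AGAP009792 and AGAP003494 at -1.199, -1.198 and -1.188. On the An. coluzzii side AGAP000323, AGAP013319 and AGAP000555 lay inside at absolute values of 0.498, 0.495 and 0.493, and AGAP004104, AGAP005732 and AGAP008117 outside at 0.512, 0.516 and 0.518. The weaker An. merus difference was above -1.3 in 24 members. The larger An. coluzzii difference was above 0.4 in absolute value in 14.

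AGAP001352 had the most negative mean An. merus difference. In An. merus at 18 h its FW libraries read 5.86, 5.92, 10.2 and 5.63 CPM and its SW libraries 3.18, 1.07, 0.635 and 0.727 CPM. The 66 h libraries gave 13.2, 16.7, 23.5 and 15.3 CPM in FW, against 1.89, 2.65, 3.22 and 0.726 CPM in SW. No SW library reached an FW library at either age, and the differences were -1.79 and -2.59. The An. coluzzii FW libraries at 18 h split into 0.442, 0.227, 3.02 and 3.23 CPM, and the SW libraries held 2.2, 1.18, 0 and 0.851 CPM, so its small difference there (-0.30) averages unequal replicates. Its An. coluzzii values at 66 h were 7.08, 8.86, 8.47 and 6.31 CPM in FW, against 5.57, 4.51, 5.35 and 6.29 CPM in SW, and every SW library lay below every FW library.

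AGAP008808 had the next most negative difference and was far lower in An. merus than in An. coluzzii in either water. In An. merus at 18 h its FW libraries held 4.67, 3.86, 5.3 and 4.14 CPM and its SW libraries 0.477, 0.765, 0.347 and 0.404 CPM, the latter from 24 reads over the group. For 66 h the FW values were 7.92, 7.08, 7.16 and 3.38 CPM, while SW gave 1.16, 0, 0.665 and 0.545 CPM from 17 reads. An. coluzzii at 18 h had 23.1, 38.5, 40.5 and 41.1 CPM in FW, with 29.7, 40.1, 22 and 28.1 CPM in SW. There the waters overlapped, as they did at 66 h, where the FW mean was 25.4 ± 9.91 CPM and the SW mean 18.8 ± 4.57 CPM (mean ± SD, n = 4).

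AGAP012160 had the most negative difference at 18 h, -2.17. Its An. merus libraries at that age read 22.5, 25.9, 29.9 and 23.9 CPM in FW, compared with 7, 4.74, 4.16 and 4.04 CPM in SW. The 66 h libraries of An. merus read 36.1, 33.5, 30.6 and 25.6 CPM in FW, compared with 7.57, 9.1, 8.32 and 6.9 CPM in SW. The waters were far apart at both ages. In An. coluzzii its means at 18 h were 19.1 ± 2.53 CPM for FW, compared with 15.1 ± 1.35 CPM for SW.

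For the members with the most reads counting error is small, and the rule fixes their order of the waters in An. merus as it does for every member. AGAP013319 had the highest mean of all members, 1234 CPM over 32 libraries. In An. merus at 18 h it held 460.0, 352, 325 and 469.5 CPM in FW, against 74.9, 163, 162 and 238 CPM in SW. The 66 h values were 1878, 2000.4, 1019 and 1180.1 CPM in FW, against 542, 421, 459.7 and 744 CPM in SW. In An. coluzzii at 18 h its FW libraries held 1131, 1125, 895 and 637 CPM and its SW libraries 1149.6, 599.9, 531 and 500.3 CPM. SW replicate 1 lay above every FW library, and the other 3 SW libraries lay below every FW library. At 66 h An. coluzzii had 3262, 3140.3, 1664 and 2322 CPM in FW, with 2368, 3337, 3821 and 2509 CPM in SW, again overlapping. Its difference at 18 h in An. coluzzii, -0.50, was just inside the limit.

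AGAP008465 and AGAP008460 came next by mean, at 686 and 509 CPM. AGAP008465 in An. merus at 18 h held 906, 1040.1, 873 and 1008 CPM in the FW libraries, those in SW holding 295, 326, 314 and 315 CPM. Its 66 h libraries held 1449, 1604, 1050.4 and 1373 CPM in FW, against 285, 290.2, 307 and 283 CPM in SW. For An. coluzzii at 18 h the FW values were 884, 871, 566 and 692 CPM, while the SW libraries gave 359, 584, 628 and 624 CPM. At the later age An. coluzzii gave 618, 629.9, 703 and 770.0 CPM in FW, compared with 631, 668, 670.3 and 343 CPM in SW. The waters overlapped at both ages in An. coluzzii, and 1 SW library lay well below the rest at each age, replicate 1 at 18 h and replicate 4 at 66 h.

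AGAP008460 in An. merus at 18 h gave 474, 559, 432 and 513 CPM for the FW libraries, with 115, 123, 135 and 146 CPM for those in SW. For 66 h the FW libraries read 1261, 1328, 887 and 1809 CPM, and the SW libraries read 351, 364, 389 and 299 CPM. In An. coluzzii the FW mean was 525 ± 135 CPM at 18 h, beside 372 ± 65.7 CPM in SW. The means at 66 h were 452 ± 107 CPM in FW, beside 422 ± 141 CPM in SW. The SW libraries of An. merus overlapped those of An. coluzzii at 66 h and lay below all of them at 18 h. AGAP006146 in An. merus at 18 h read 154, 156, 152 and 180.5 CPM in FW, compared with 52.5, 55.2, 56.7 and 50.4 CPM in SW. The later libraries of An. merus gave 362, 316, 379 and 621 CPM in FW, compared with 108, 168, 169 and 126 CPM in SW, again with no overlap. Its An. coluzzii means at 66 h were 179 ± 43.9 CPM for FW, next to 172 ± 52 CPM for SW.

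AGAP000327, AGAP006146 and AGAP012461 were also among the 8 members with the highest means, at 347, 171 and 50.1 CPM, with differences in An. merus of -1.33, -1.56 and -1.31 at 18 h and -1.31, -1.52 and -1.26 at 66 h. CPM is not scaled by gene length, so these means do not rank the members by number of transcripts.

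**Figure D3:**
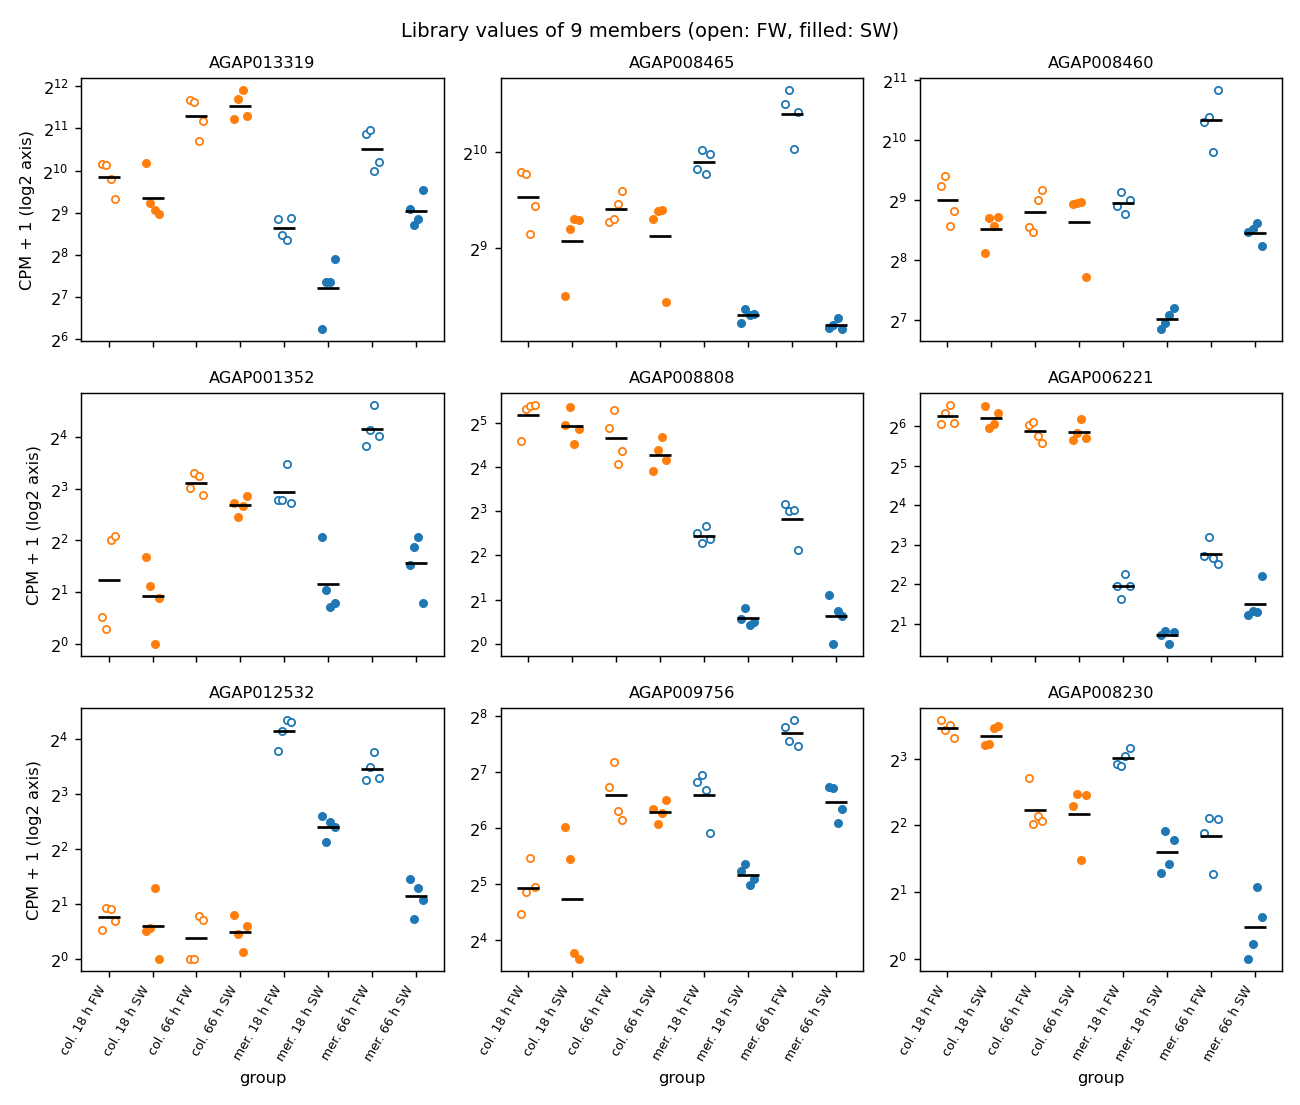
Library values of 9 members in the 8 groups, as CPM + 1 on a log2 axis that differs between panels, with open points for FW, filled points for SW, orange for An. coluzzii, blue for An. merus and black bars at the group mean of log2(CPM + 1). In all 9 the filled blue points lie below the open blue points of the same age, while the orange points of an age overlap or nearly so.

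In FW the members went both ways between the species. The FW values are also part of the water differences that chose the members, so their order is described without a test and not read as a property of the members. An. merus was lower than An. coluzzii in 27 members and higher in 21 at 18 h (median difference -0.15), and lower in 24 and higher in 24 at 66 h (median 0.00), with ranges from -4.31 to 3.38 and from -3.10 to 3.08. All FW libraries of An. merus lay below all those of An. coluzzii in 17 members at 18 h (20.5% of all genes) and 9 at 66 h (20.7%), and above in 13 (21.4%) and 14 (23.2%). In SW the order carries the An. merus difference between waters that chose the members. An. merus was there lower in 44 members at 18 h and 45 at 66 h, with medians of -1.32 and -1.18. Its SW libraries lay below all 8 An. coluzzii libraries of the same age, FW and SW together, in 35 of 48 members at 18 h (22.3% of all genes) and 40 of 48 at 66 h (27.9%).

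**Figure D4:**
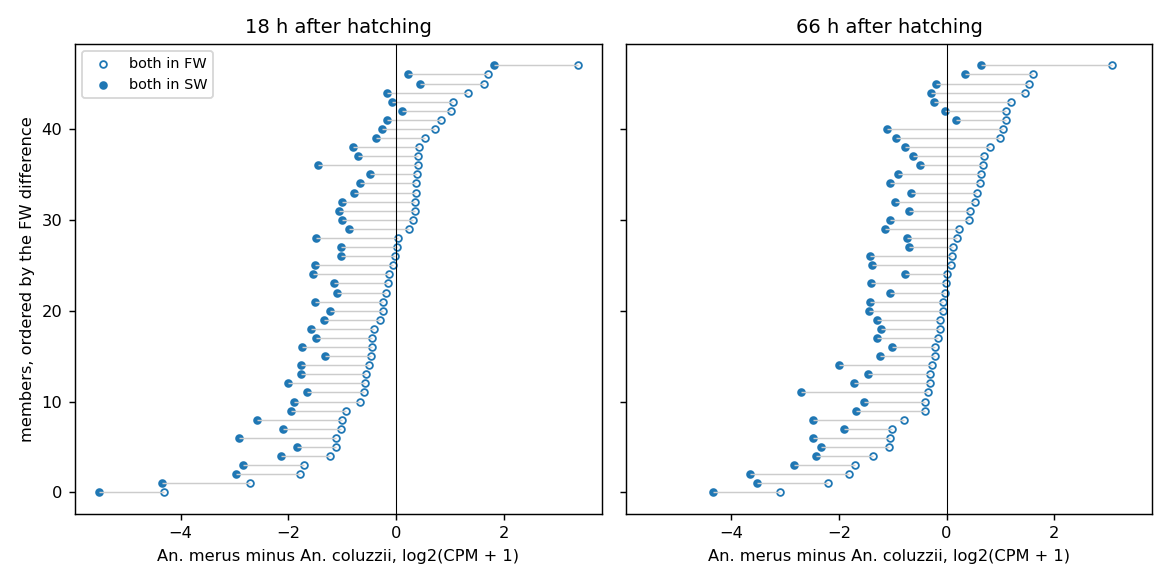
An. merus minus An. coluzzii in log2(CPM + 1) for each of the 48 members at 18 h (left) and 66 h (right), with open points for both species in FW, filled points for both in SW, a grey line joining the points of a member and members ordered by the FW difference. The FW points spread on both sides of 0, at medians of -0.15 and 0.00, and the SW points lie mostly below it, at medians of -1.32 and -1.18.

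Species differences averaged over the waters were tested in the linear model over all 10505 genes (limma, Benjamini-Hochberg adjusted p below 0.05). At 18 h 33 members were lower in An. merus (30.4% of all genes) and 6 higher (34.7%), and at 66 h 30 were lower (33.8%) and 7 higher (35.8%). The rule itself puts the lower SW values of An. merus into this mean. That share of the difference had a median of -0.58 at 18 h and -0.66 at 66 h, beside total medians of -0.72 and -0.63, so the counts are not read as a property of the members. With every library rescaled to the same sum, the all-gene median went from 0.04 to -0.16 at 18 h and from 0.03 to -0.26 at 66 h, so these directions are relative too. Both species are reported on the same identifiers, and poorer alignment of reads in a species cannot be told apart from a lower level there.

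A few members differed between the species by far more than that share. AGAP006221 was lower in An. merus by the widest margin at both ages, with averaged differences of -4.91 ± 0.14 (SE, adjusted p = 9.4e-23) at 18 h and -3.72 ± 0.14 (SE, adjusted p = 7.1e-20) at 66 h by limma. In An. coluzzii at 18 h its FW libraries read 66, 79.7, 91.4 and 67 CPM, with 90.7, 61, 65.9 and 80.0 CPM in SW. The 66 h An. coluzzii libraries read 64.6, 68.1, 52.5 and 46.9 CPM in FW, with 49, 56.2, 72.3 and 51.4 CPM in SW. An. merus at 18 h read 2.88, 2.06, 3.82 and 2.87 CPM in FW, but 0.636, 0.765, 0.404 and 0.727 CPM in SW. Its 66 h values were 5.57, 8.16, 5.3 and 4.74 CPM in FW, but 1.31, 1.49, 1.44 and 3.63 CPM in SW. Every An. merus library lay below every An. coluzzii library of the same age, and the An. coluzzii differences between the waters were -0.04 and -0.02. AGAP008808 followed at 18 h with -3.53 ± 0.18 (SE, adjusted p = 3.2e-16), and AGAP001057 at 66 h with -2.87 ± 0.13 (SE, adjusted p = 1.4e-17) (limma). At 66 h AGAP001057 averaged 41 ± 3.48 CPM in FW, with 37.5 ± 9.85 CPM in SW, for An. coluzzii. For An. merus the averages were 8.18 ± 1.68 CPM in FW, with 2.35 ± 1.02 CPM in SW.

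AGAP012532 was the reverse case, higher in An. merus and under 1 CPM on average in all An. coluzzii groups. An. merus at 18 h held 12.7, 16.6, 19.3 and 18.9 CPM in FW, without overlap with the SW values of 5.09, 3.37, 4.62 and 4.28 CPM. Its values at 66 h were 8.57, 10.3, 12.6 and 8.79 CPM in FW, against 1.75, 0.662, 1.44 and 1.09 CPM in SW. The 4 An. coluzzii groups averaged from 0.34 ± 0.394 to 0.705 ± 0.22 CPM, and the 4 FW libraries at 66 h held 11 reads together. The averaged species differences were 2.60 ± 0.16 (SE, adjusted p = 1.9e-14) at 18 h and 1.86 ± 0.16 (SE, adjusted p = 2.2e-11) at 66 h (limma). AGAP001924 likewise stayed below 2 CPM in all An. coluzzii groups, and its averaged difference at 66 h was 0.98 ± 0.18 (SE, adjusted p = 1.6e-05) (limma). For these 2 members the An. coluzzii difference between the waters was computed on values near the pseudocount of 1. A change of their level there was not detectable at this depth. Both also met the 1 CPM minimum and the An. merus limit through their levels in An. merus. A higher level in An. merus was thus largely needed for entry, and their p-values are not read as support for it. AGAP009756 had the next highest difference at 18 h, at 1.04 ± 0.25 (SE, adjusted p = 0.00085) by limma.

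Averaged over the waters, the age difference has errors independent of the water differences that chose the members. The rule still needs a measurable level in An. merus FW at both ages. The lowest member means there were 2.91 CPM at 18 h and 2.67 CPM at 66 h. Members were called in both directions with age. In An. coluzzii 8 members were higher at 66 h than at 18 h (35.5% of all genes) and 17 lower (33.8%), with a median over the 48 of -0.17 (limma, adjusted p below 0.05). In An. merus 13 were higher (33.3%) and 14 lower (34.3%), with a median of -0.01. The calls of the species coincided in 17 of 48 members, against 52.8% of all genes. The species share no library, but their tests share the same estimate of spread for each gene. The SD within groups had a median of 0.26 in members, beside 0.22 over all genes. Members called in the same direction in both species were thus a smaller share than genes at large. That comparison was not tested, and genes at large need no level in An. merus FW at both ages. The 8 higher in both (26.3% of all genes) were AGAP000571, AGAP001352, AGAP005778, AGAP006146, AGAP009755, AGAP009756, AGAP011794 and AGAP013319. The 9 lower in both (26.4% of all genes) were AGAP004469, AGAP004689, AGAP005957, AGAP006439, AGAP006971, AGAP008230, AGAP008845, AGAP010308 and AGAP012461. A further 14 were called in neither (17.1% of all genes), namely AGAP000323, AGAP000555, AGAP000559, AGAP001924, AGAP003434, AGAP004322, AGAP005048, AGAP007205, AGAP007577, AGAP008465, AGAP008469, AGAP009246, AGAP010928 and AGAP012269. AGAP006221 was the 1 member called in opposite directions (1.24% of all genes), at -0.38 ± 0.14 (SE, adjusted p = 0.014) in An. coluzzii and 0.81 ± 0.14 (SE, adjusted p = 5.3e-06) in An. merus by limma.

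The remaining 16 members were called with age in 1 species only, as were 28.9% of all genes. In An. coluzzii alone 7 were lower (6.59% of all genes), AGAP001101, AGAP002580, AGAP002985, AGAP004338, AGAP007102, AGAP008808 and AGAP010283. In An. merus alone 4 were higher (6.22%), AGAP000327, AGAP008460, AGAP012160 and AGAP013115, and 5 were lower (7.38%), AGAP001057, AGAP003866, AGAP005917, AGAP012532 and AGAP013008. A call in 1 species does not show that the species differ, and the interaction described below was called in 7 of these 16, beside 41.1% of all genes called in 1 species only. With every library rescaled to the same sum, the median of all genes moved to -0.41 in An. coluzzii and -0.47 in An. merus, and the calls became 6 higher and 38 lower, and 8 higher and 29 lower. Directions with age are therefore relative to the typical gene under the scaling of the deposited table.

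**Figure D5:**
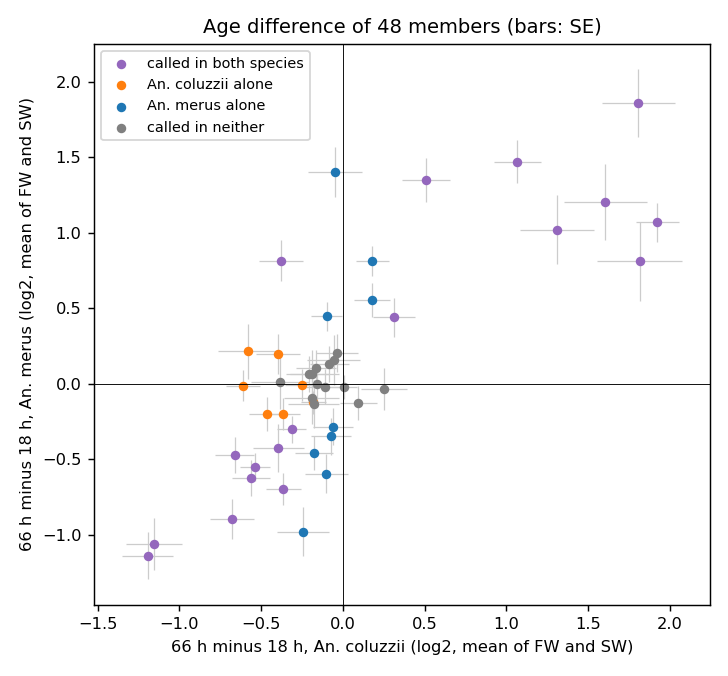
Difference between 66 h and 18 h, averaged over FW and SW, in An. coluzzii (x axis) and An. merus (y axis), in log2(CPM + 1), for the 48 members, with bars for the SE and colour for the species in which the adjusted p was below 0.05. Of the 48, 17 were called in the same direction in both species (52.8% of all genes), 1 in opposite directions (1.24%) and 14 in neither (17.1%).

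The same pair of members had the most negative age difference in both species. AGAP008230 differed by -1.19 ± 0.16 (SE, adjusted p = 9.5e-08) in An. coluzzii and -1.14 ± 0.16 (SE, adjusted p = 2.5e-07) in An. merus (limma), with An. coluzzii FW values of 10.9, 9.76, 10.3 and 8.94 CPM at 18 h, against 5.54, 3.04, 3.43 and 3.2 CPM at 66 h. The An. merus libraries in FW read 6.55, 6.44, 7.21 and 7.93 CPM at 18 h, against 2.68, 3.31, 1.42 and 3.29 CPM at 66 h. The lowest 18 h library lay above the highest 66 h library of the same species in FW. AGAP006971 differed by -1.15 ± 0.17 (SE, adjusted p = 7.6e-07) and -1.06 ± 0.17 (SE, adjusted p = 3.1e-06) in the same order. Its FW mean in An. merus was 41.4 ± 13.9 CPM at 18 h, compared with 25.3 ± 5.09 CPM at 66 h. In SW the mean was 16.2 ± 1.92 CPM at the first age, compared with 5.21 ± 0.729 CPM at the second.

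Among those higher at 66 h, AGAP005778 led in An. coluzzii at 1.92 ± 0.13 (SE, adjusted p = 1.3e-13) by limma, where the FW libraries held 2.36, 1.47, 1.87 and 1.28 CPM at 18 h, against 11.3, 13.4, 7.39 and 7.69 CPM at 66 h. AGAP001352 followed at 1.82 ± 0.26 (SE, adjusted p = 5.7e-07). In An. merus AGAP013319 led at 1.86 ± 0.22 (SE, adjusted p = 5.6e-08), close to its difference in An. coluzzii of 1.81 ± 0.22 (SE, adjusted p = 7.7e-08). AGAP000571 was next at 1.47 ± 0.14 (SE, adjusted p = 3.3e-10), where the FW libraries read 8.14, 9.27, 11 and 15.3 CPM at 18 h, against 25.7, 30.6, 27.8 and 32.8 CPM at 66 h. All 4 were on the higher side under both scalings, without a change of sign in any alternative.

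Whether age acted differently in the species was tested by the interaction of species and age averaged over the waters. It was called in 8 members with the more positive age difference in An. merus (10.7% of all genes) and in 3 with the more negative (12%), with a median of 0.09 (limma). The largest interaction was that of AGAP008460, at 1.45 ± 0.23 (SE, adjusted p = 6.4e-05). Its FW mean in An. merus was 494 ± 54.1 CPM at 18 h, compared with 1321 ± 379 CPM at 66 h, beside the An. coluzzii means above. AGAP006221 followed at 1.19 ± 0.19 (SE, adjusted p = 4.8e-05). The other members with a positive interaction were AGAP006146, AGAP008808, AGAP000327, AGAP010283, AGAP001101 and AGAP012160, from 0.84 down to 0.54. The most negative were AGAP001352, at -1.01 ± 0.37 (SE, adjusted p = 0.049), and AGAP005778, at -0.86 ± 0.19 (SE, adjusted p = 0.0014), with AGAP012532 the third, at -0.74. An interaction averaged over the waters also takes in any change with age of the water differences. From 18 h to 66 h, An. merus minus An. coluzzii went from 3.38 to 3.08 in FW and from 1.82 to 0.64 in SW for AGAP012532. For AGAP001352 it went from 1.72 to 1.05 in FW and from 0.23 to -1.11 in SW. For AGAP005778 it went from 1.03 to 0.12 in FW and from 0.11 to -0.69 in SW. The call of AGAP001352 was lost in 22 of the 32 fits that left out 1 library, with adjusted p up to 0.084. Among An. coluzzii libraries it was kept without FW replicates 3 and 4 in turn and SW replicate 1 at 18 h, and without FW replicate 4 and SW replicate 2 in turn at 66 h. Among An. merus libraries it was kept without SW replicates 3 and 4 in turn at 18 h, and without FW replicate 3 and SW replicates 2 and 3 in turn at 66 h. Without both An. coluzzii 18 h FW replicates 1 and 2 the interaction was -0.60 (limma, adjusted p = 0.187). The call was lost also with edgeR on the recovered reads (adjusted p = 0.196) and DESeq2 (adjusted p = 0.101).

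Apart from the group means, the members did not vary as a unit. Within groups, the residuals of the 48 had a median pairwise Pearson r of 0.01 over 1128 pairs and 32 libraries. Over all pairs of tested genes the median was 0.00. Single pairs of members ran from -0.77 to 0.90, and 51.9% of the pairs were positive. The residuals share libraries and depth, and the values are descriptive. Members' SD within groups had a median of 0.26 on the log2 scale, with a range from 0.15 (AGAP002985) to 0.55 (AGAP001352), beside 0.22 over all genes. Across the 8 group means, a member's Pearson r with the mean profile of the other members had a median of 0.85 and ran from -0.06 (AGAP012532) to 0.99 (AGAP003434), a likeness that the rule largely builds in.

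Some members carry neighbouring identifier numbers. By a distance of at most 5, 9 members fell into 4 runs, AGAP000323 with AGAP000327, AGAP000555 with AGAP000559, AGAP008460 with AGAP008465 and AGAP008469, and AGAP009755 with AGAP009756. Positions on the genome were not used here, and identifier order is not shown to be genome order. In the first 3 runs other identifiers of the table lay between the members, and none of those 9 genes met the rule. In the run from AGAP008460 to AGAP008469, for example, the differences of the 4 other genes in An. merus ran from -0.90 to 0.32.

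The closest pairs within groups were in these runs. AGAP009755 and AGAP009756 had the highest residual r of the 1128 pairs, 0.90, and AGAP008460 and AGAP008465 the next highest, 0.87. With each library left out in turn, the first stayed between 0.86 and 0.93, and the second between 0.80, without An. coluzzii 66 h SW replicate 4, and 0.92. AGAP006146, with an identifier far from both, had an r of 0.76 with AGAP008460, and 0.62 without that same library. Whether near-identical copies share reads in these runs was not tested.

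The adjacent pair AGAP009755 and AGAP009756 shows what lies behind the first value. In An. coluzzii at 18 h AGAP009755 held 16.1, 18, 41 and 37.2 CPM in FW, with 56, 43.9, 13.3 and 17.9 CPM in SW. AGAP009756 held 21.1, 28.1, 43.3 and 29.8 CPM in the same FW libraries, with 63.4, 42.8, 12.6 and 11.7 CPM in the SW libraries. In SW replicates 1 and 2 were high and replicates 3 and 4 low in both genes, so the small differences at this age (0.10 and -0.21) are means over libraries that disagree. In An. merus at 18 h AGAP009755 read 38.9, 41.6, 35.2 and 22.2 CPM in FW, against 16.4, 15.2, 11.9 and 11.1 CPM in SW. AGAP009756 read 111, 122, 101 and 58.7 CPM in FW there, against 36.6, 40.1, 30.6 and 33.1 CPM in SW, and FW replicate 4 was the lowest FW library for both genes. At 66 h the waters were apart again, with AGAP009755 averaging 70.6 ± 14.3 CPM in FW, against 28.3 ± 3.61 CPM in SW. AGAP009756 averaged 206 ± 30.2 CPM in FW, against 89 ± 18.5 CPM in SW. Both were higher at 66 h than at 18 h in both species. The age differences of AGAP009755 were 1.31 ± 0.23 (SE, adjusted p = 1.2e-05) for An. coluzzii, then 1.02 ± 0.23 (SE, adjusted p = 0.00029) for An. merus, and those of AGAP009756 were 1.61 ± 0.25 (SE, adjusted p = 3.6e-06), then 1.20 ± 0.25 (SE, adjusted p = 0.00017) (limma).

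The run of AGAP000555 and AGAP000559 showed close group means, with a Pearson r of 0.99 over the 8 groups and of 0.46 over the residuals. In An. merus at 18 h AGAP000559 held 3.97, 4.63, 5.15 and 6.78 CPM in FW, against 1.27, 1.61, 1.21 and 0.808 CPM in SW. For 66 h its FW libraries read 4.07, 5.01, 4.7 and 6.28 CPM, and its SW libraries read 0.727, 2.48, 0.776 and 0.363 CPM. AGAP000555 held 14.8, 15.1, 17.5 and 16.7 CPM in FW at 18 h, against 7.32, 6.81, 6.06 and 4.04 CPM in SW. Its 66 h libraries gave 13.1, 16.6, 17.3 and 23.2 CPM in FW, compared with 5.38, 7.78, 5.99 and 6.9 CPM in SW. The waters did not overlap at either age for either gene. Neither gene was called with age in either species, with averaged differences from -0.19 to 0.10. In the other run, AGAP000323 and AGAP000327 had a residual r of -0.35 and group means with an r of 0.86. AGAP000323 was lower in An. merus than in An. coluzzii in FW at both ages, with differences of -1.11 and -1.07, which were not tested. For AGAP000327 the FW difference was -0.66 at 18 h, but 0.09 at 66 h.

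Outside the members, the genes whose 8 group means most resembled the mean member profile were AGAP002385, AGAP001702 and AGAP012408, with a Pearson r of 0.989, 0.988 and 0.986. In An. merus their differences at 18 h, -0.81, -0.90 and -1.05, were short of the limit, as did those at 66 h, -1.06, -1.13 and -0.93. AGAP001702 averaged 11.7 CPM in FW, against 5.86 CPM in SW, in An. merus at 18 h. In An. coluzzii at that age the averages were 13.2 CPM in FW, against 12.8 CPM in SW.

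The reads behind the members were few in some groups, of FW as well as of SW. Of the 384 combinations of a member and a group, 27 held fewer than 50 reads over the 4 libraries, and 8 of 1536 library values were 0. The lowest was AGAP010928 in An. merus at 66 h in SW, with 8 reads and values of 0, 0.331, 0.333 and 0.545 CPM, against 4.82, 4.93, 4.03 and 5.03 CPM in FW. Its ratio of means, 15.6, is the largest of all members and rests on those 8 reads. Since no molecular identifiers were used, reads are not independent molecules, and read numbers bear on counting error only.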

How the data were processed

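Messenger RNA of whole larvae was sequenced in 32 libraries, and groups were read from the sample titles. The values deposited by the authors are a signal per gene, which they name as CPM with trimmed mean of M values (TMM) scaling and as filtered, by a rule that no source used here gives. The submitters' processing notes name edgeR, HTSeq, TopHat2, Bowtie2 and Trimmomatic, with no version or role. The build and annotation are not given in the sources used here. Per the labels' protocols, libraries were made with a TruSeq RNA v2 kit after a polyA selection step, and this kit does not mark strand, so overlapping genes cannot be told apart.

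Divided by what 1 read is worth, the values of every library gave whole reads within 0.01 reads (100% of values), and TMM factors recomputed from those reads gave the deposited column sums, 737787 to 1481287, to a relative difference of 2.2e-16. Over genes with 20 reads or more in both libraries together, the chi-square per degree of freedom of the 48 replicate pairs was 5.36 to 50.3, so no pair was taken for a library deposited again. An. coluzzii 18 h FW replicates 1 and 2 gave 5.36, the other pairs of that group 27.8 to 33.1. In An. coluzzii 66 h FW, replicates 1 and 2 gave 8.99 and replicates 3 and 4 gave 5.89, the other pairs 18.3 to 33.2. Whether such libraries are independent pools was not tested, and the model took every library as a replicate. Tests chosen for CPM were applied to this signal.

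The values were tested as log2(CPM + 1), a pseudocount of 1 that understates changes of low genes, with limma 3.58.1 in R 4.3.3: 1 model of 8 group means over 32 libraries (24 residual degrees of freedom), trend and robust moderation, two-sided tests, Benjamini-Hochberg adjustment over the 10505 genes averaging 1 CPM or more. The 5 tested comparisons were the age difference in each species, the species difference at each age and the interaction of species and age, all averaged over the waters, which makes their errors independent of the water differences that chose the members. The model was tried on simulated reads for the age difference in An. coluzzii alone. Only genes averaging 5 CPM or more were changed there, and the other comparisons were not scored. edgeR 4.0.16 and DESeq2 1.42.0 on the recovered reads were alternatives, and edgeR called 7229, 7192, 6841, 7314 and 2071 genes in the 5 comparisons in the order above, where limma called 7283, 7104, 6841, 7316 and 2386. Figures were drawn with matplotlib 3.10.9.

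The members and lists were chosen with earlier results of these data known. Named were the 8 members with the highest mean CPM, the 2 with the most negative An. merus difference, those within 5 identifier numbers of another, up to 2 called members in each direction of each comparison and the genes nearest the limits. AGAP010928, AGAP012160, AGAP002985 and AGAP003434 were singled out after their values were seen, and other members are named only in full listings of a count. The gene table of the AcolN3 assembly used here held 0 of the 11025 identifiers, so the planned lists of gene functions and tissue markers matched no gene, and no sequence is given.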

Additional observations from a re-analysis of the deposited data

Results flagged for a closer look

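Within groups of 4 libraries, 18 of the 176 groups of the 22 named members held a library far from the other 3, with its gap to the nearest of them, as a share of the group's range, above Dixon's 95% critical value. That value is passed in about 1 in 20 groups of independent, normally distributed values. The groups here share libraries and were looked at on the CPM scale, so this rate is not established for them. In An. merus the flagged FW libraries at 18 h were replicate 3 of AGAP001352 (10.2 CPM against 5.63 to 5.92) and replicate 4 of AGAP006146 (180.5 against 152 to 156). At 66 h it was FW replicate 4 of AGAP001057 (5.7 against 8.78 to 9.4). The SW replicate 4 at 66 h stood high for AGAP000571 (14 against 11.3 to 11.6) and AGAP006221 (3.63 against 1.31 to 1.49).

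In An. coluzzii at 18 h, FW replicate 4 stood high for AGAP000555 (24.1 CPM against 15.9 to 16.5) and AGAP001924 (1.14 against 0.737 to 0.794), and FW replicate 1 stood low for AGAP001057 (37.4 against 44 to 45) and AGAP008808 (23.1 against 38.5 to 41.1). SW replicate 4 was high for AGAP000559 (6.6 against 3.79 to 4.14). SW replicate 1 was low for AGAP008465 (359 against 584 to 628) and high for AGAP013319 (1149.6 against 500.3 to 599.9).

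At 66 h, An. coluzzii FW replicate 1 stood high for AGAP000323 (42.9 CPM against 32.8 to 34.4) and AGAP008230 (5.54 against 3.04 to 3.43), and FW replicate 4 for AGAP006971 (16.2 against 6.07 to 7.21). SW replicate 2 stood high for AGAP006971 (8.08 against 5.98 to 6.31). SW replicate 4 stood low for both AGAP008460 (210.4 against 487 to 498) and AGAP008465 (343 against 631 to 670.3), the neighbouring identifiers whose residuals followed each other.

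The age difference, averaged over the waters, was called as different between the species (limma) for 4 named members. An. merus had the more positive difference for AGAP008460 (1.45 ± 0.23 (SE, adjusted p = 6.4e-05)) and AGAP006221 (1.19 ± 0.19 (SE, adjusted p = 4.8e-05)). It had the more negative for AGAP005778 (-0.86 ± 0.19 (SE, adjusted p = 0.0014)) and AGAP001352 (-1.01 ± 0.37 (SE, adjusted p = 0.049)). The call of AGAP001352 is weak. It was lost in 22 of the 32 fits that left out 1 library, with edgeR (adjusted p = 0.196) and with DESeq2 (adjusted p = 0.101).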

How the results depend on the processing

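Membership depended on the scale. The rule gave 10 genes with a pseudocount of 4 (8 of them among the 48), 112 with every library rescaled to the same sum (42 of the 48, where the An. merus median of all genes was -0.21 at 18 h and -0.26 at 66 h) and 103 with edgeR fold changes on the recovered reads (40 of the 48). With a pseudocount of 0.5 it gave 66, with no minimum 49, with a minimum of 5 CPM 37, and without the first 2 An. coluzzii 18 h FW libraries 68 (46 of the 48). With 1 library left out it gave 39 to 61 genes, and 13 members met it in all 32 such settings.

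Counts of called members stayed within 1.5 times in all 320 values with 1 library left out. With every library rescaled to the same sum, 38 members were lower with age in An. coluzzii, 8 higher and 29 lower in An. merus, and 2 higher in An. merus than in An. coluzzii at 66 h. The last count was 4 with a minimum of 5 CPM, which tested 37 members. Of 811 values of named members under alternatives, 784 kept direction and call, 0 reversed and 27 lost the call, all for the interaction of AGAP001352. The cause was not tested. The alternatives for gene lists were not run, as no list matched. No paired analysis was possible because the labels give no replicate number shared between groups.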
